A study of Mus musculus with 8 samples.

Results

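DNA methylation of 10 genes of the circadian clock was described in muscle stem cells of old and young mice: Per1, Per2, Per3, Cry1, Cry2, Clock, Arntl, Nr1d1, Nr1d2 and Rora. Each gene was taken as its RefSeq span plus 5 kb on each side in mm10 coordinates. The 10 regions held 26777 of the 32984740 cytosine positions of CpG sites listed on chromosomes 1 to 19 and X, from 643 at Nr1d1 to 13701 at Rora. The old group was 4 male C57BL/6 mice of 22 months and the young group 4 male C57BL/6 mice of 4 months, with the cells of 1 animal in each library. Quiescent muscle stem cells, which rest beside the fibre until injury, were sorted from limb muscle by flow cytometry as CD45-, CD31-, Sca1- and VCAM+ and snap-frozen, and their DNA was read by whole-genome bisulfite sequencing, which turns unmethylated cytosines into thymines. The labels do not give the time of day at which muscle was taken.

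The deposited table holds 1 smoothed methylation level and 1 dispersion for each age at each position, with the authors' own p-value and false discovery rate (FDR). It holds no value of a single animal and no read count, so every level below is the authors' group value, has no SD, and rests on an unknown depth at each position. Differences are old minus young in percentage points. Over the whole table the level was 64.6% in old cells and 64.1% in young cells. The less methylated ends of 5 muscle stem cell genes were between 4.19% (Pax7) and 25.5% (Cdh15) in old cells and between 3.88% and 24.1% in young cells. Those of the blood genes Ptprc, Cd3e and Itgam and the endothelial genes Pecam1 and Cdh5 were between 49.8% and 72.9% in old cells and between 49.96% and 72.5% in young cells. Of the fibro-adipogenic genes, Ly6a, which encodes Sca1, was at 51.7% in old cells and 46.4% in young cells, and Pdgfra was at 11.4% in old cells and 11.6% in young cells. Smoothing pools neighbouring positions, so adjacent values are not independent.

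The clock is a transcriptional loop of about a day that runs in most cells. CLOCK and BMAL1, the product of Arntl, bind E-boxes as a pair and switch on the Per and Cry genes, whose products then enter the nucleus and block the pair. The nuclear receptors REV-ERB alpha and beta (Nr1d1 and Nr1d2) repress Arntl, and ROR alpha (Rora) activates it, through the same response element. D-boxes, bound by the activator DBP and the repressor NFIL3, form another arm. In muscle, clock genes cycle in the fibres and in stem cells.

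RefSeq promoter sequences of build GRCm38.p6, from 250 bases before to 50 bases after a start, were at hand for 13 starts of 9 of the 10 genes. The 5 below are printed because they hold between them every motif that was searched for. They are written 5′ to 3′ in the direction of the gene, and capitals mark every match, on either strand, to the E-box CACGTG, the ROR/REV-ERB core AGGTCA, the D-box TTATGNAA and the E-box variant CACGTT. The variant was added after the sequences were seen.
Per1 start 1, chr11:69098699-69098998, + strand: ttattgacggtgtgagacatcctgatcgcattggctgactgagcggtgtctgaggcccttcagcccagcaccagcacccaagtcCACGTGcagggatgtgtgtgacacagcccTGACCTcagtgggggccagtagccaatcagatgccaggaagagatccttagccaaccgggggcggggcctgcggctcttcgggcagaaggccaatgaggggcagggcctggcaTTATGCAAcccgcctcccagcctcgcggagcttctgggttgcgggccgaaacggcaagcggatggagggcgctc
Per3, chr4:151044616-151044915, - strand: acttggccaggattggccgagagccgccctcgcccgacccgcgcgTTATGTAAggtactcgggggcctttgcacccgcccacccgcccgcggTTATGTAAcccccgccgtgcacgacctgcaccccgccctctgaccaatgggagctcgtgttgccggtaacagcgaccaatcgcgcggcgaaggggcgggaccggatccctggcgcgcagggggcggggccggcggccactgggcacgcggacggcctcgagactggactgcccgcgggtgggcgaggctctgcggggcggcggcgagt
Cry1, chr10:85185005-85185304, - strand: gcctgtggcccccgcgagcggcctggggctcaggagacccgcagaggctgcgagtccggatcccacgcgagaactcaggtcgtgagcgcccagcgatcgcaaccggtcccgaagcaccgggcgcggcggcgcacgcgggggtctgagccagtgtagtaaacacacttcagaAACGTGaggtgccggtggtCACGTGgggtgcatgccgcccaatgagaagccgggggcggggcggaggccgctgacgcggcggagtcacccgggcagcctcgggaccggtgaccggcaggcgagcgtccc
Arntl start 2, chr7:113207261-113207560, + strand: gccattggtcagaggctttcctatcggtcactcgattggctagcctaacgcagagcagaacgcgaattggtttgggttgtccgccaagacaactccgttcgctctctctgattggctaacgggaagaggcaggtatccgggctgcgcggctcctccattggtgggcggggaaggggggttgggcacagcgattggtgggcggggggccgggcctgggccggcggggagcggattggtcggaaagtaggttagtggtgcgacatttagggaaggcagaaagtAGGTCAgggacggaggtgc
Nr1d1, chr11:98775328-98775627, - strand: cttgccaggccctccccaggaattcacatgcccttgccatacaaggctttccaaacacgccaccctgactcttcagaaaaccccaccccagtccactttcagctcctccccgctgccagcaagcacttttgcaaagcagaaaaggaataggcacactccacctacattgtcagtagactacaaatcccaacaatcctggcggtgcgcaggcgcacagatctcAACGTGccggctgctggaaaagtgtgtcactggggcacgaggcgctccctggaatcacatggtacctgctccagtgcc

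Per1 start 1 held an E-box beginning 166 bases before the start, an AGGTCA on the opposite strand at 137 bases and a D-box at 24 bases. Per3 held D-boxes at 205 and 158 bases before its start. Cry1 held an E-box at 60 bases and a variant at 79 bases. Cry2 and Nr1d1 each held a variant, at 166 and 28 bases before their starts. Of the AGGTCA cores outside Per1, that of Nr1d2 lay 77 bases and that of Clock start 1 119 bases before the start, and that of Arntl start 2 began 31 bases after it. CACGTG stood in 7.198% of 32619 RefSeq promoters, AGGTCA in 16.22%, TTATGNAA in 3.409% and CACGTT in 4.715%. The motifs do not overlap each other in these sequences, and no match was in the windows of Rora, Clock starts 2 and 3, Per1 start 2 and Arntl start 1.

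The CpG inside each E-box or variant was almost free of methylation at both ages. In the Per1 E-box it stood at 2.25% in old cells and 2.48% in young cells. In the Cry1 E-box it stood at 1.79% in old cells and 1.96% in young cells, and in the Cry1 variant at 1.81% in old cells and 1.95% in young cells. The variants of Cry2 and Nr1d1 gave the same picture, with 1.75% in old cells against 1.89% in young cells at Cry2 and 2.36% in old cells against 2.56% in young cells at Nr1d1. All 5 values lay lower in old cells, by less than 0.3 points. Of all protein-coding start windows with a mean level under 20%, 61.3% were lower in old cells. The Cry1 sites lie close together in smoothed data, so the 5 values are not separate observations. In the 13 promoter windows 0 positions had an unadjusted p under 0.05, beside 2.61% of all positions in the table. The share among positions of so low a level was not counted.

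Starts of the clock genes were unmethylated in old and in young muscle stem cells. Within 1 kb of a RefSeq start, 11 of 13 starts lay between 2.09% and 3.57% in old cells and between 2.32% and 3.60% in young cells. The exceptions were Nr1d1, at 5.87% in old cells and 6.21% in young cells, and Per1 start 2, at 21.8% in old cells and 22.1% in young cells, whose window runs into the methylated body. At the repressor genes, Cry1 was at 2.09% in old cells and 2.47% in young cells, Cry2 at 3.22% in old cells and 3.15% in young cells, and Per3 at 3.43% in old cells and 3.60% in young cells. Per2, placed by its less methylated end, was at 3.13% in old cells and 3.11% in young cells. At the activators, Clock start 1 was at 3.36% in old cells and 3.39% in young cells, and Arntl start 1 at 2.62% in old cells and 2.73% in young cells. These pairs differed by less than 0.4 points. At the receptors, Nr1d2 was at 2.64% in old cells and 2.85% in young cells and Rora at 3.14% in old cells and 3.30% in young cells.

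Of the 13 starts, 12 had a lower level in old cells and Cry2 a higher one. The windows of the several starts of Per1, of Clock and of Arntl overlap within each gene, so the 13 are not separate observations. The share of lower starts was 54.3% over all 19567 starts of protein-coding genes, and 61.3% over the 12383 of them with a level under 20%, whose median difference was -0.0924 points. Mitochondrial positions, set beside them as a site with little methylation, stood at 1.08% in old cells and 1.18% in young cells, a difference of -0.104 points, and the part of a shared offset in the clock starts was not tested. Each window was given 2 times the median p of its positions as deposited, with Benjamini-Hochberg adjustment over all windows of at least 10 positions. No start was called, with an adjusted p of 1 for each, against 0.0% of all starts called in the same test.

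**Figure D1:**
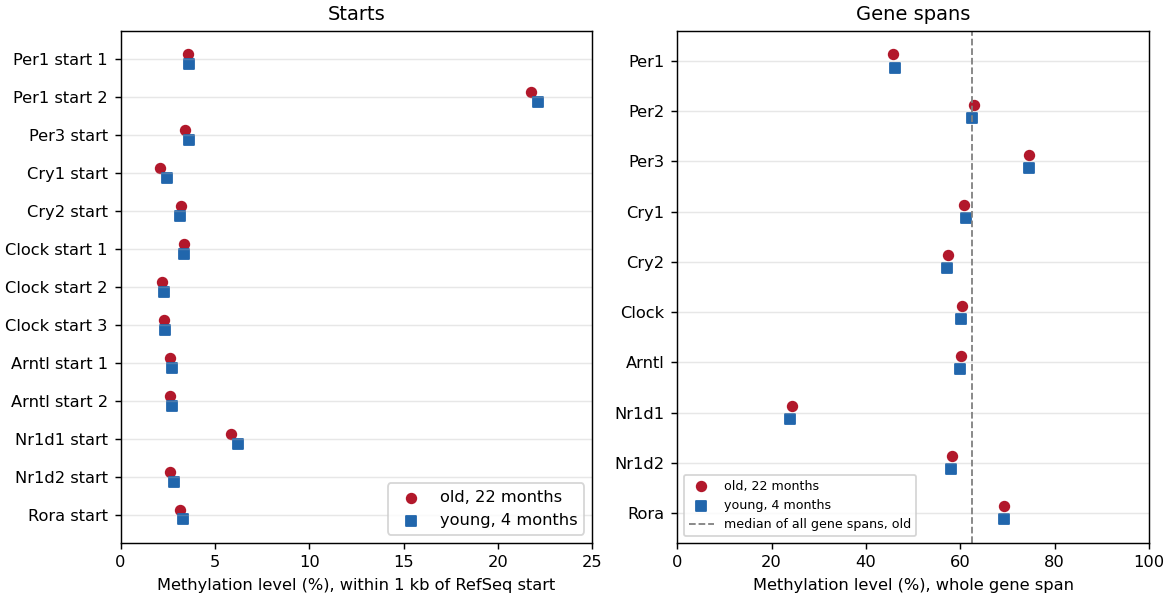
Methylation level in percent within 1 kb of each RefSeq start (left; axis to 25%) and over the whole gene span (right; axis to 100%) for the clock genes. Red circles are the old group and blue squares the young group, each the authors' single group value, and the dashed line is the median of all gene spans in old cells; the 2 ages lie almost on each other in every gene, with Nr1d1 lowest and Per3 highest among the spans.

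The unmethylated stretch around each start had the same or nearly the same width at both ages in 7 of the 10 genes. A stretch was taken, by a definition chosen after seeing the data, as at least 10 neighbouring positions under 20% with gaps of at most 500 bp. The widest were those of Rora, of 4056 bp in old cells and 3295 bp in young cells, Nr1d1, of 3728 bp in old cells and 3734 bp in young cells, and Per1, of 3535 bp at both ages. That of Rora was the widest of the 10 in old cells, and that of Nr1d1 in young cells. Nr1d1 encodes REV-ERB alpha, and its stretch reaches far into so short a gene. The remaining genes ranged from 1886 bp (Per3) to 2607 bp (Clock) in old cells and from 1572 bp (Per3) to 2607 bp (Clock) in young cells. Of all protein-coding starts, 62.1% lay in such a stretch, and the median width of these 13072 stretches was 1475 bp in old cells and 1472 bp in young cells, so all 10 clock genes stood above it. Cry2 was the gene with the narrower stretch in old cells by the widest margin, at 2078 bp in old cells against 2444 bp in young cells. Per3 was wider in old cells, at 1886 bp against 1572 bp in young cells. Over all starts, 20.8% of stretches were wider and 18.4% narrower in old cells.

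Over the gene spans, the 3 Period genes covered most of the range of levels. Per1, which glucocorticoids induce, had a span on chromosome 11 from 69095108 to 69109965 at 45.8% in old cells and 46.1% in young cells. Per2, whose loss shortens the daily period in mice, lay on chromosome 1 from 91415977 to 91459351 at 63.0% in old cells and 62.6% in young cells. Per3, which is dispensable for the rhythm in mice, lay on chromosome 4 from 150997018 to 151044707 at 74.6% in old cells and 74.5% in young cells. Per3 was above 90.6% of all 20483 spans tested and Per1 above 19.6%, in both cases by the level and with no test. The cryptochromes, the strongest repressors of the CLOCK and BMAL1 pair, lay between them. Cry1 (chromosome 10, 85131700 to 85185054) was at 60.9% in old cells and 61.3% in young cells. Cry2 (chromosome 2, 92403646 to 92434085) was at 57.4% in old cells and 57.2% in young cells.

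Both activator genes were alike in level. Clock (chromosome 5, 76209868 to 76305603) was at 60.4% in old cells and 60.06% in young cells. Arntl (chromosome 7, 113178471 to 113314126) was at 60.2% in old cells and 59.9% in young cells. The receptor genes spread more widely. Nr1d1 (chromosome 11, 98767932 to 98775377) was at 24.2% in old cells and 23.97% in young cells, above only 6.88% of spans. Nr1d2 (chromosome 14, 18204056 to 18239106) was at 58.3% in old cells and 57.99% in young cells. Rora (chromosome 9, 68653404 to 69388246), the longest of the 10 at 734843 bp, was at 69.3% at both ages.

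None of the span differences passed the test, and each had an adjusted p of 1. They ran from -0.438 points at Cry1 to 0.388 points at Per2, with 7 genes higher and 3 (Per1, Cry1 and Rora) lower in old cells. The median was 0.233 points, beside 0.389 points over all spans, of which 72.0% were higher in old cells. With the mean difference of each chromosome taken off, 0 of the 10 spans were higher in old cells, beside 44.9% of all spans. Of all spans and of all 38816 gene ends, 0.0% were called, and 0 of the 10 spans and 0 of the 20 ends of the clock genes. The smallest adjusted p over all spans was 1, as it was over all less methylated ends and all starts, so the counts of 0 follow from a test that called none of these features in any gene. At an unadjusted 2 times median p under 0.05, 0.0361% of all ends and 0.00976% of all spans passed.

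Where along a gene the methylation sat differed more between the genes than between the ages. In Per1 the first 3 of 10 equal parts of the span held at most 4.85% in old cells and 4.63% in young cells, and its body reached 82.1% in old cells and 84.2% in young cells by part 5. The usual gene has its low part only at the start, with a median over all genes of 24.2% at both ages in part 1 and of 69.8% in old cells and 69.1% in young cells in part 2. In Arntl the low part was part 3, at 22.5% in old cells and 22.7% in young cells, where both RefSeq starts lie, 29 kb inside the span. Parts 1 and 2 of Arntl stood above 55% at both ages. In Rora, part 9 dipped to 54.6% in old cells and 55.2% in young cells. Nr1d2 part 6 stood at 79.8% in old cells and 86.2% in young cells, over 16 positions.

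**Figure D2:**
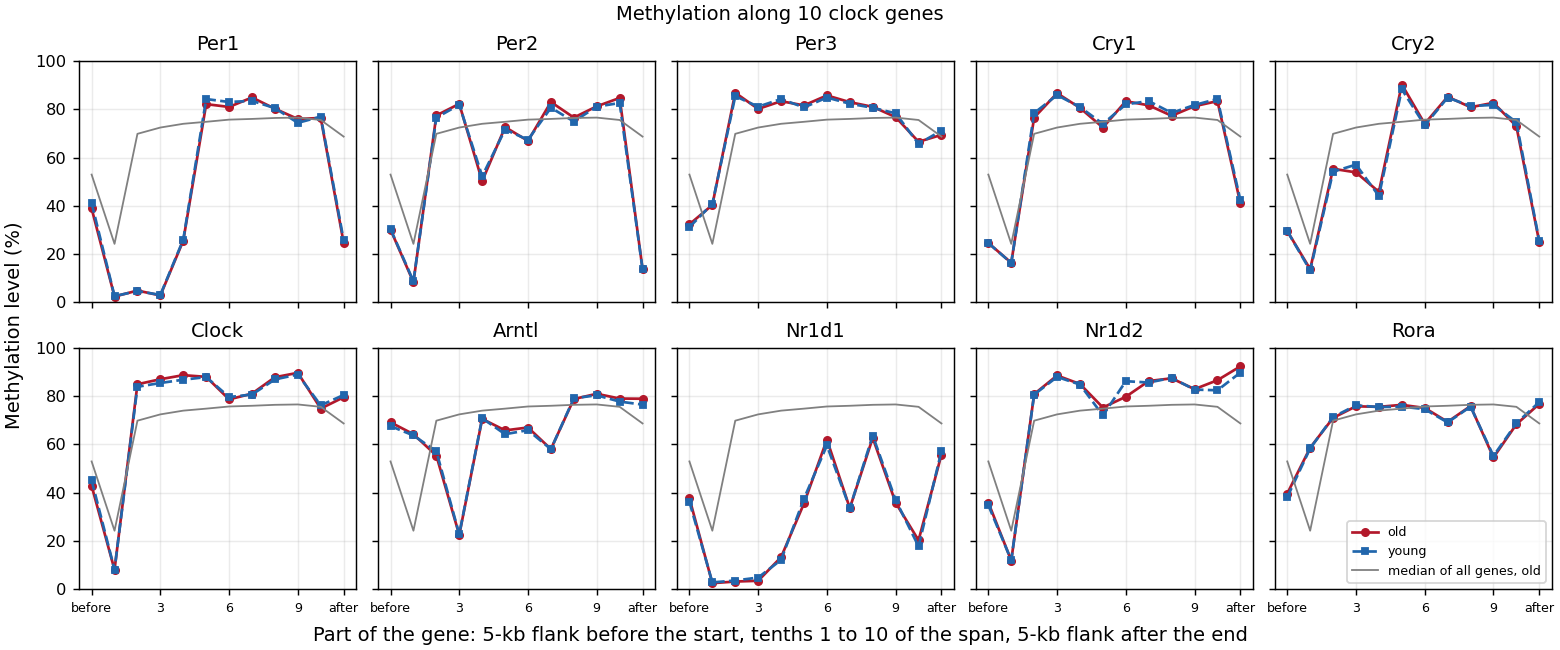
Methylation level in percent in the 5-kb flank before the start, in parts 1 to 10 of the span and in the 5-kb flank after the end, for each of the 10 genes. Red circles with solid lines are the old group, blue squares with dashed lines the young group, and the grey line is the median of all genes in old cells; the lines of the 2 ages overlap, while the low stretch takes parts 1 to 3 in Per1 and parts 1 to 4 in Nr1d1, sits in part 3 in Arntl and takes only part 1 in Clock and Nr1d2.

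Some flanks of the clock genes were low in methylation at both ages and hold all or part of a neighbouring gene. The flank after Per1, at 24.7% in old cells and 25.7% in young cells, holds 2 tRNA genes. The flank after Per2, at 13.8% in old cells and 13.7% in young cells, holds Hes6, a transcriptional regulator of the Hes family. A stretch of 2403 bp at both ages there overlaps Hes6 and covers an end of that gene. The flank after Cry2, into which Mapk8ip1 reaches, was at 24.9% in old cells and 25.4% in young cells. That after Cry1, into which Mterf2 reaches, was at 41.0% in old cells and 42.3% in young cells. In both, an unmethylated stretch covers the end of the neighbouring gene. In these 4 flanks the ages differed by less than 1.5 points. Over all 20 flanks the differences ran from -2.33 points before Clock to 2.56 points after Nr1d2.

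The more methylated end of each gene gave the wider difference in 8 of the 10 genes, and none was called. The exceptions were Nr1d1 and Per1, whose less methylated end was at 6.95% in old cells and 8.40% in young cells and whose other end was at 30.4% in old cells and 31.6% in young cells. The more methylated end of Cry1 was at 77.7% in old cells and 82.5% in young cells, a difference of -4.76 points with an unadjusted 2 times median p of 0.878. The end of Rora was at 88.05% in old cells and 85.5% in young cells. Those of Per2, at 82.4% in old cells and 83.3% in young cells, and Clock, at 78.4% in old cells and 79.9% in young cells, leaned lower in old cells. That of Per3 stood at 76.6% in old cells and 75.1% in young cells and that of Nr1d2 at 92.4% in old cells and 91.7% in young cells. The ends thus showed no common direction.

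At single positions, 41 of the 26777 passed the authors' FDR of 0.05, which is 0.153%, beside 0.236% of all positions in the table. Of these, 24 were higher in old cells (0.132% of all positions) and 17 lower (0.105%). An unadjusted p under 0.05 was reached by 1.75% of the clock positions, beside 2.61% of all positions. The difference between these shares was not tested. Rora held 25 of the 41 and 51.2% of the positions, and without Rora, a setting chosen after seeing the data, 16 of 13076 positions were called, which is 0.122%. Per1, Per3, Cry2 and Nr1d1 held none, and none of the 41 lay in an unmethylated stretch.

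Among the repressor genes, Per2 held a single called position, at 91434276, with 82.2% in old cells and 95.7% in young cells. Cry1 held 3. The nearest to a start of all 41 was 85186994, 1.94 kb before the start of Cry1, with 87.7% in old cells and 60.4% in young cells. The other two lay in the body, at 85162544 with 82.9% in old cells and 62.3% in young cells, and at 85176092 with 63.1% in old cells and 78.1% in young cells. The 3 calls of Cry1 thus had no common direction.

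Among the activator genes, Clock held 3 called positions and Arntl 5. That is 0.186% of the positions of Clock and 0.181% of those of Arntl, beside 0.236% of all positions. In Clock, 76255228 stood at 41.4% in old cells and 20.7% in young cells, with the authors' p of 3.599e-14, and 76238665 at 55.0% in old cells and 68.7% in young cells. In Arntl, 113199932 had the widest gap of the 41, at 77.2% in old cells and 43.0% in young cells. It lies 7.53 kb before the nearest RefSeq start. Another position of Arntl, 113240517, was at 88.4% in old cells and 71.3% in young cells, while the other three differed by less than 8 points.

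Of the positions of Nr1d2, the gene of REV-ERB beta, 0.432% were called, beside 0.236% of all positions. This difference was not tested. The calls were 4 positions within 4 kb. They were 18217303, at 68.1% in old cells and 51.0% in young cells, 18218258, at 67.1% in old cells and 91.4% in young cells, 18219557, at 74.0% in old cells and 88.2% in young cells, and 18221136, at 90.3% in old cells and 96.9% in young cells. The lower 3 of these all lay in part 6 of the gene, and the higher position came after them in the direction of the gene. The lower 3 did not form a block. Between 18219557 and 18221136, the 1-kb tile from 18220001 held 2 positions at 85.85% in old cells and 80.29% in young cells. The smallest p of the 41 was that of 18219557, at 2.385e-33.

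A CpG is the same on both strands, so each call could be set beside its partner cytosine. All 41 partners were listed and 39 had the same smoothed levels, as 94.1% of all CpGs did, but only 4 partners were past the FDR as well, and the median p of the partners was 0.0974. At 18219557 in Nr1d2 the partner had a p of 0.0948, and at 76255228 in Clock a p of 0.0571. At 113199932 in Arntl it was 0.011, at 85186994 in Cry1 0.0317 and at 91434276 in Per2 0.231. The 4 partners made up 2 CpGs called on both strands, both in Rora: 68892076, at 96.6% in old cells and 85.6% in young cells, and 69359532, at 84.4% in old cells and 67.2% in young cells. With positions at the most common dispersion value left out, 0 such CpGs were counted. CpGs called on both strands were 0.00695% of all CpGs, and 1.68% of protein-coding genes, of any length, held at least 1. The long Rora region held 6299 CpGs with both cytosines listed. Of the 41 calls, 36 had the most common dispersion of the table in at least 1 age (0.0434 in old cells, 0.0438 in young cells), which is 87.8%, beside 91.7% of all called positions. The part of that dispersion value in the calls was not tested.

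Nr1d1 had the lowest span level of the 10 genes and the highest mean dispersion, the spread parameter phi that the authors give for each age without a definition in the sources used here. Its 5′ 3723 bp were at 7.32% in old cells and 7.82% in young cells, and its 3′ 3723 bp at 38.9% in old cells and 37.9% in young cells. Mean dispersion over the span was 0.0612 in old cells and 0.0589 in young cells, beside 0.0491 in old cells and 0.0487 in young cells over the whole table. Dispersion was higher in the 3′ part at both ages. In its 5′ part the mean was 0.0481 in old cells and 0.0476 in young cells, with 1.56% of positions over 0.1 in old cells and 1.04% in young cells. In its 3′ part the mean was 0.0725 in old cells and 0.0687 in young cells. A single position there, 3770 bp from the start, was at 0.8898 in old cells and 0.0661 in young cells and counts in these means. In the 3′ part 12.6% of positions were over 0.1 in old cells and 11.7% in young cells. For all positions these shares were 2.79% in old cells and 2.33% in young cells. The high values were thus more frequent in the 3′ part, whose mean level was intermediate. In the first 1 kb past the end, at 22.5% in old cells and 30.4% in young cells, 0% of 21 positions were over 0.1 at both ages. So few positions cannot show whether dispersion goes with the level, which was not tested.

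The 3′ end of Nr1d1 overlaps that of Thra, the gene of thyroid hormone receptor alpha on the opposite strand, and the shared 1075 bp were at 19.2% in old cells and 17.3% in young cells. In the first 1 kb beyond the end of Nr1d1, inside Thra, the level was 22.5% in old cells and 30.4% in young cells over 21 positions. There 9 positions had an unadjusted p under 0.05, all lower in old cells, and 0 passed the FDR. The order turned within this 1 kb, with 13.97% in old cells and 8.52% in young cells at 8265 bp from the start. The stretch from 98766227 to 98767348 overlaps its far part and holds 2 of these 9 positions. That stretch was at 17.2% in old cells and 14.4% in young cells. The 1-kb tile from 98767001 to 98768000 was at 26.0% in old cells and 34.3% in young cells. It had an unadjusted 2 times median p of 0.154 and was not called.

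**Figure D3:**
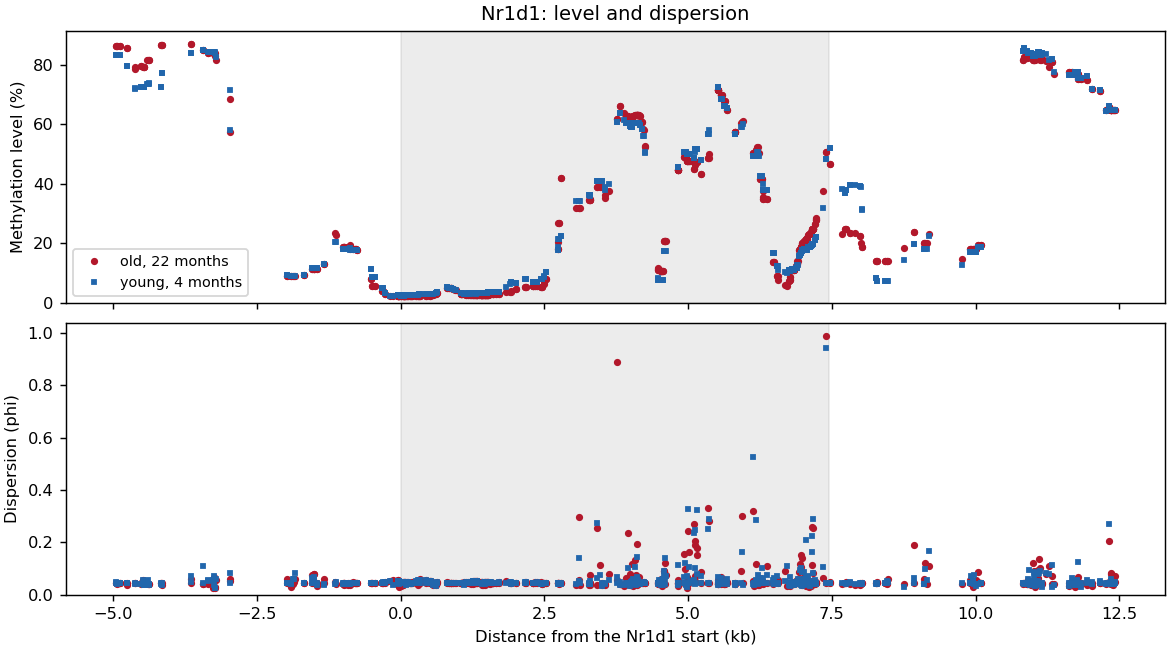
Methylation level in percent (top) and dispersion phi (bottom) at each position from 5 kb before the Nr1d1 start to 5 kb after its end, by distance from the start in kb. Red circles are the old group, blue squares the young group and the grey band is the span; levels stay low at both ages for the first 2.5 kb, high dispersion gathers in the 3′ part at both ages, and the old group lies below the young group just past the end and above it further on, with 22.5% in old cells and 30.4% in young cells over the first 1 kb.

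Rora was the gene with the most called positions, and it is also the longest. Its 25 calls were 0.182% of its positions, beside 0.236% of all positions. Of these calls, 16 were higher and 9 lower in old cells. Neighbouring calls lay on the same side in places. At 304 kb from the start, 68957097 was at 26.2% in old cells and 44.3% in young cells, 68957179 at 37.3% in old cells and 56.3% in young cells, and 68957379 at 59.2% in old cells and 82.6% in young cells. At 575 kb, 69228560 stood at 60.7% in old cells and 30.4% in young cells and 69228737 at 75.3% in old cells and 47.2% in young cells. The calls at 304 kb were thus lower and those at 575 kb higher in old cells.

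Over the 10 regions, 1033 tiles of 1 kb held at least 10 positions, and 0 were called, beside 8.12e-05% of all tiles in the table. In the 9 genes other than Rora all tiles differed by less than 10 points. Of 606 tiles in Rora, 6 were at least 10 points higher in old cells, which is 0.990% beside 1.29% of all tiles, and 3 at least 10 points lower, which is 0.495% beside 0.837%. A single tile of Rora had an unadjusted 2 times median p under 0.05, as did 0.106% of all tiles. It runs from 69115001 to 69116000 and was at 61.4% in old cells and 37.4% in young cells, with an unadjusted p of 0.0112 and an adjusted p of 1.

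**Figure D4:**
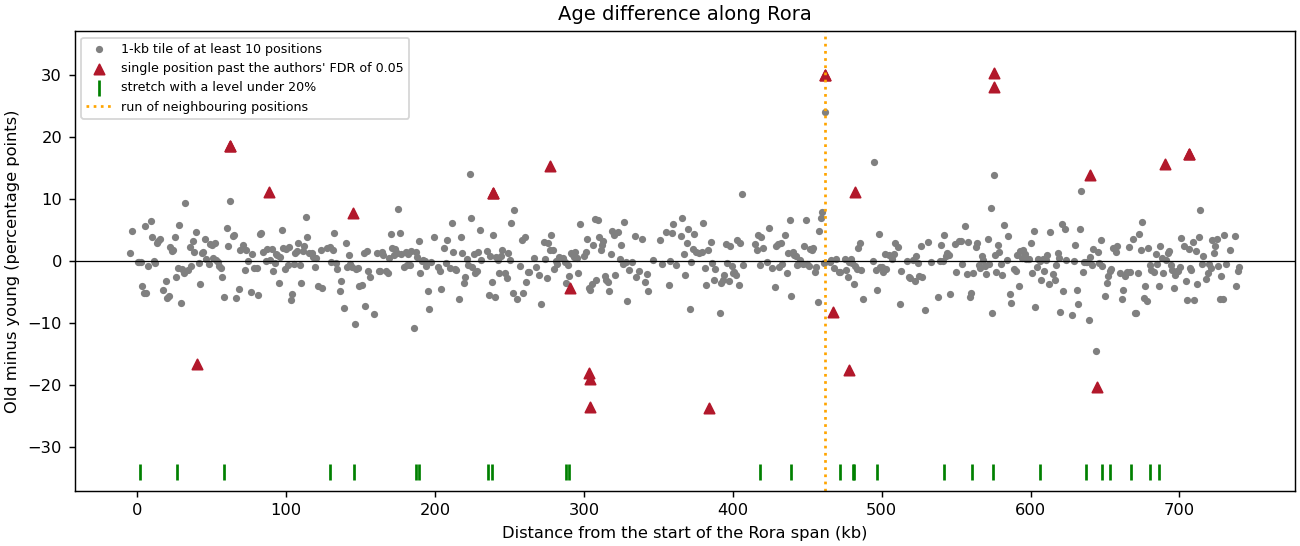
Difference in methylation, old minus young in percentage points, along Rora by distance from the start of the span in kb. Grey dots are 1-kb tiles, red triangles single positions past the authors' FDR of 0.05, green ticks stretches under 20% and the dotted line a run of neighbouring positions; 597 of 606 tiles lie within 10 points of 0, and the tile at the run is the highest, at 24.0 points.

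That tile held the only run in the 10 regions, defined as at least 6 neighbouring positions with the authors' p under 0.01, the same sign and gaps of at most 100 bp. The run took in 12 positions over 127 bp, from 69115478 to 69115604 on chromosome 9, 462 kb from the start of Rora. Its level was 60.05% in old cells and 35.0% in young cells. The 12 positions were both cytosines of neighbouring CpGs, many with shared levels, so they are not 12 separate sites. The smallest p was 4.749e-05 and 2 of the 12 passed the FDR. Those 2 had the same smoothed levels, 56.58% in old cells and 26.59% in young cells. Their partner cytosines did not pass, with an FDR of 0.4842 and 0.5936. The run did not end sharply on its far side, where the next 4 positions within 500 bp were at 65.3% in old cells and 44.5% in young cells, and no position was listed in the 500 bp before it. Of the 12 positions, 6 had the most common dispersion in at least 1 age. Runs of this kind were held by 1.31% of protein-coding genes. That share is not adjusted for gene length, and Rora is the longest of the 10 genes, at 734843 bp. At p under 0.05, Clock and Rora held a run, as did 10.7% of protein-coding genes.

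**Figure D5:**
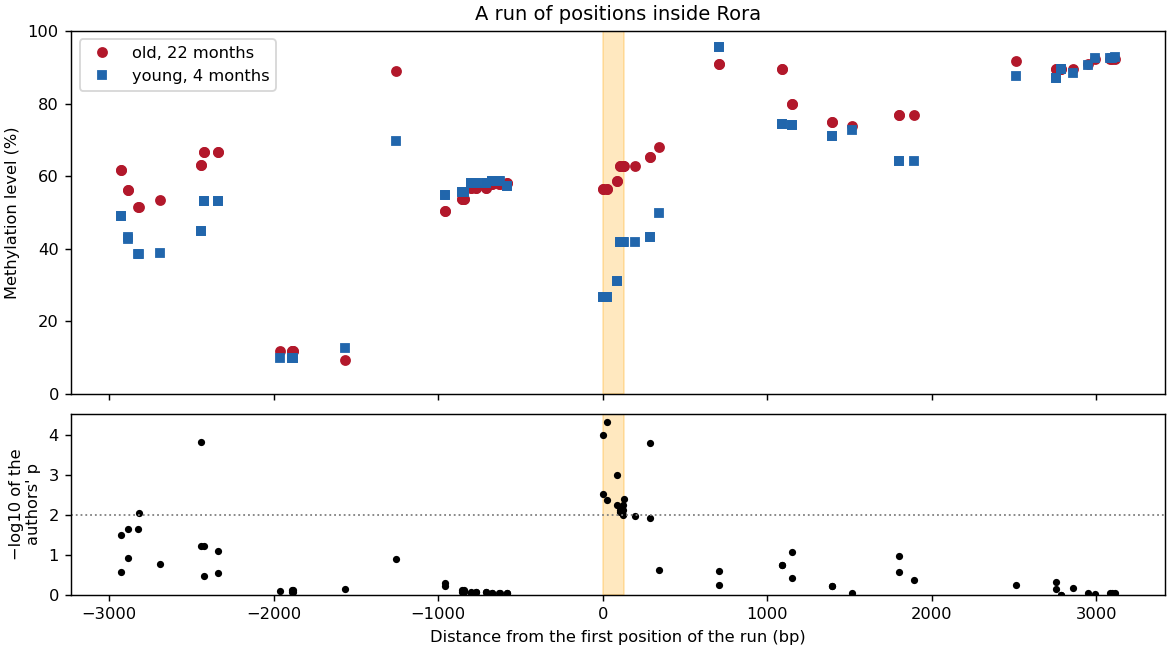
Methylation level in percent (top) and −log10 of the authors' p (bottom) around the run inside Rora, by distance in bp from its first position. Red circles are the old group and blue squares the young group, the orange band is the run and the dotted line a p of 0.01; within the band the old group is at 60.05% and the young group at 35.0%, and outside the band the gap between the ages varies in size and in sign.

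Rora also held 26 stretches under 20% away from its start, more than any of the other 9 genes. Per 100 kb of span that was 3.54, beside 26.9 in Nr1d1, 9.86 in Cry2, 9.22 in Per2 and 5.16 in Arntl. In 20 of the 26 in Rora the level was lower in old cells and in 6 higher. Over all 42 such stretches in the 10 genes 29 were lower and 13 higher. Over all 56136 stretches of the genome, 57.0% were lower in old cells. The longest of those in Rora, of 2221 bp at both ages from 69289318 to 69291538, held 318 positions at 3.84% in old cells and 4.04% in young cells and lies 637 kb from the start. By the 20% limit, 4 stretches of Rora were found only in old cells and 1 only in young cells. The widest gap was at 68799056 to 68799387, at 16.4% in old cells and 27.9% in young cells. Arntl held 7 stretches away from its starts, 4 lower and 3 higher in old cells, and Per2 held 4, 3 lower and 1 higher. Cry2 held 3, 2 lower and 1 higher, and Nr1d1 held 2, 0 lower and 2 higher.

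The list of 25 other clock genes, which act beside the 10 as paralogues, kinases, ligases or output factors, also held no called feature. All 25 were found, and 0 of their less methylated ends, spans and 1-kb tiles were called. The less methylated end lay under 20% at both ages in 21 of them. It was lower in old cells in 21 and higher in 4, with a median of -0.157 points, while 54.1% of all less methylated ends were lower in old cells. Among protein-coding starts with a mean level under 20% the share was 61.3%, and it was not counted for ends of so low a level. Spans were higher in old cells in 15 and lower in 10, with a median of 0.149 points. Among the largest differences at the less methylated end, none past the threshold, were those of Arntl2, a paralogue of Arntl, at 42.6% in old cells and 45.4% in young cells, and Cipc, an inhibitor of CLOCK, at 31.2% in old cells and 32.2% in young cells. On the higher side were Fbxl21, a ubiquitin ligase subunit that acts on cryptochromes, at 8.25% in old cells and 7.79% in young cells, the deacetylase gene Sirt1, at 3.53% in old cells and 3.33% in young cells, and the deubiquitinase gene Usp2, at 3.23% in old cells and 3.13% in young cells. Of 33593 positions in these genes 25 were called, which is 0.0744% beside 0.236% of all positions. Here 10 of the 25 were higher and 15 lower in old cells, whereas 24 of the 41 calls in the 10 genes were higher.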

How the data were processed

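Whole-genome bisulfite sequencing libraries of 4 old and 4 young mice took their group from the labelled age. The submitters' processing notes name mm10 and GRCm38 as builds and Bismark, Trim Galore and edgeR as tools. Tool roles, versions and the smoothing method were not given in the sources used here. Per the labels, libraries had 115000000 to 200000000 reads each. Per the file headers, the authors' levels are a mean fraction for each age; neighbouring positions often share a value, so they were taken as smoothed. Dispersion is a score that the authors deposited for each age. The p-value and FDR of each position are deposited by the authors and were used as they stand.

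Deposited positions count from 0; adding 1 placed 100% of 771779 positions in RefSeq promoters on a CpG, and printed positions include it. Levels were averaged in percent with equal weight per position. Windows and tiles of at least 10 positions were tested as 2 times the median p with Benjamini-Hochberg adjustment, called at 0.05. This procedure was tested on simulated data with assumed errors. The outcome is not given here, and no result above rests on it. Since each age has 1 value, p-values rest on the authors' model and no test over animals was made. All 10 members are always named, and of the other clock genes those called, or else the 3 with the largest difference in each direction; values of some genes that meet it are not reported here. Members and lists were chosen with earlier results of these data known. Alternatives were other windows, tile sizes, minimums, weights and thresholds. Python 3.11.15, numpy 2.4.6, pandas 2.3.3 and matplotlib 3.10.9 were used.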

Additional observations from a re-analysis of the deposited data

How the results depend on the processing

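No paired analysis was possible because the table gives 1 value per age and no column carries a replicate number, and for the same reason no replicate could be left out. The clock genes held 0 called tiles, ends and spans under each tile size and minimum tried, which says nothing about stability, since between 0 and 3 tiles were called in the whole genome. The count of 41 called positions moved to 25 at an FDR of 0.01, to 5 without positions at the most common dispersion and to 16 without Rora. Without positions at that dispersion the CpGs called on both strands went to 0, and with p under 0.05 the runs went to 6.

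Small differences turned sign. With the chromosome mean taken off, spans became Per2 -0.0938, Per3 -0.290, Cry2 -0.261, Clock -0.108, Arntl -0.177, Nr1d1 -0.134 and Nr1d2 -0.243 points. Averaged over 1-kb tiles, spans became Per3 -0.0638, Nr1d2 -0.368 and Rora 0.0416 points. Without positions at the most common dispersion, the Rora span became 0.0171 and the less methylated ends of Per2 and Arntl -0.0270 and 0.189 points. Within 500 bp the ends became Per2 -0.0507, Cry2 -0.0983 and Arntl 0.290 points, and within 2 kb Arntl became 1.54 points. In the 300-bp promoter windows Cry2 became -0.122 and Clock start 1 0.0122 points. The number of spans higher in old cells was 0, in place of 7, with the chromosome mean taken off. The cause was not tested. The directions of span differences of under 0.5 points are therefore not settled, and with depth unknown no counting error can be given.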

Other observations

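Runs of at least 6 neighbouring positions with the same sign were also looked for at the looser p of 0.05, which gave 6 in the 10 regions. The run before Clock lay 4.32 kb from its start, on chromosome 5 from 76309922 to 76310019, with 6 positions at 19.3% in old cells and 36.2% in young cells. It is the single run found in the flank of a clock gene, and none of its positions passed the FDR (smallest p 0.00556). The other 5 runs were all in Rora. That at 68973193 to 68973295 was at 89.7% in old cells and 75.8% in young cells over 10 positions, and that at 69115478 to 69115768 at 60.9% in old cells and 36.6% in young cells over 15. Lower in old cells were those at 68893446 to 68893565, at 64.0% in old cells and 78.8% in young cells, at 69150123 to 69150139, at 34.2% in old cells and 47.3% in young cells, and at 69297679 to 69297805, at 57.4% in old cells and 77.0% in young cells.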
